A study of Homo sapiens with 6 samples.

Results

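The replication-dependent histone genes are the clustered genes that encode the linker histone H1 and the core histones H2A, H2B, H3 and H4. They were chosen by name, as every row of the count table whose gene identifier maps to H1-1 to H1-6 or to a numbered H2AC, H2BC, H3C or H4C symbol, with pseudogenes left out. This gave 65 genes of 23459 in the table: 6 for H1, 15 for H2A, 18 for H2B, 12 for H3 and 14 for H4. Reads came from 6 sequencing libraries of MCF10A, a human cell line derived from breast epithelium that is not transformed. The cells had been transfected with siRNA at 20 nM using a lipid reagent. The 3 siCtrl libraries came from cells with a non-targeting siRNA and the 3 siYAP/TAZ libraries from cells with siRNAs against YAP1 and WWTR1, the gene of TAZ. Both are transcriptional coactivators at the end of the Hippo pathway. All 6 libraries come from this 1 line, no other genetic change is labelled, and the labels do not say whether replicates were separate cultures, so the p-values below measure the spread between these libraries.

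Replication-dependent histone genes are switched on in S phase, when new DNA has to be packed into nucleosomes. Their mRNAs are the best known exception to polyadenylation: the transcript is cut just behind a short hairpin, the histone stem-loop, which is bound by the stem-loop binding protein SLBP. The kit used here starts cDNA synthesis from oligo-dT, which anneals to stretches of adenines, and reads the 3′ end of each RNA. A count in these libraries is therefore a read from an RNA with a poly(A) tail or another run of adenines, and the level of the stem-loop-ended mRNA was not measured as such. Each RNA gives reads at 1 end, so the values were not divided by gene length.

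Sequences of the gene ends were examined first, because the kit reads the 3′ end of each RNA. Of the 65 genes, 61 were found by their current symbol with a coding transcript in the GENCODE annotation lifted to hg19. Older gene names were not searched. The stem-loop lay within 100 bases after the stop codon in 59 of these 61. Among all other protein-coding genes the same search found it in 11 of 19614 genes, or 0.0561%. These other genes were set apart by symbol alone. They can include histone genes listed under older names or without a row in the count table. The most frequent form, present in 36 genes of the H1, H2A, H2B and H3 families, and the H4 form of 8 genes including H4C3 are given here with the inverted repeats that pair in the hairpin and the loop between them in capitals throughout.

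Stem-loop of H1, H2A, H2B and H3 genes: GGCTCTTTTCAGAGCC
Stem-loop of H4 genes: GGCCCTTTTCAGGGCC

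The stretch around this hairpin differed between genes. A polyadenylation signal, AATAAA or ATTAAA, began within 30 bases behind the stem-loop in 4 genes. Of these, 3 (H1-2, H2AC19 and H2BC5) were among the 15 genes with 30 or more counts in total, and the fourth, H2AC4, was 1 of the other 46 annotated genes. The remaining 12 of the 15, among them H2BC12, had no signal within this distance. The signal lay 12 bases behind the stem-loop in H1-2 and H2BC5 and 13 bases behind it in H2AC19. The 30 bases that end in the signal are shown for these genes, with the signal in capitals (hg19, gene strand; H1-2 at chr6:26055954-26055983 on the minus strand, H2AC19 at chr1:149823146-149823175 and H2BC5 at chr6:26158819-26158848, both on the plus strand).

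H1-2: cttttcagagccaccactgatctcAATAAA
H2AC19: ttttcagagccacccacgttttcaAATAAA
H2BC5: cttttaagagccacgcatgttttcAATAAA

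H4C3, the gene with the most counts, had no such signal close by. Its annotated transcript instead contained a 20-base window with 18 adenines, located between the stop codon and the stem-loop (chr6:26104519-26104538, plus strand). In the other annotated genes the richest 20-base window held 7 to 13 adenines, and in the other H4 genes 8 to 10. Within 100 bases after the stop codon a window of 18 or more adenines occurred in 1 of 61 histone genes and in 54 of 19614 other protein-coding genes (0.275%). The window of H4C3 is shown beside those of H1-2 and H2AC14, with adenines in capitals. H1-2 was chosen as the gene with the next most counts and H2AC14 as another gene whose richest window lies behind the stop codon.

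H4C3: AAAAAAcAAAAAcAAAAAAA
H1-2: ctAAgAAAAcAccgAAgAAA
H2AC14: gAAAAgcgcAtAAAAAcAAA

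**Figure D1:**
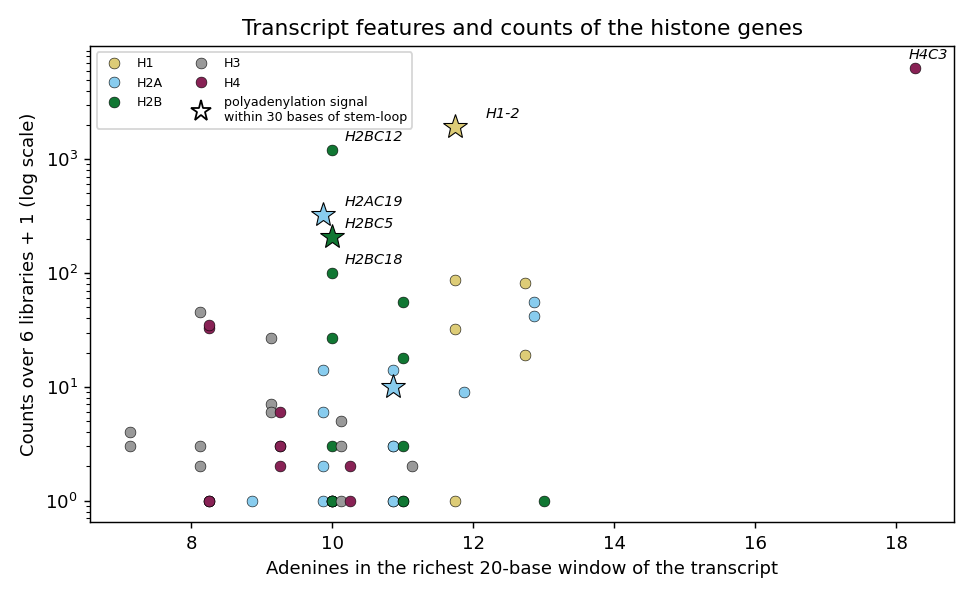
Each point is 1 of the 61 annotated replication-dependent histone genes, with the number of adenines in the richest 20-base window of its transcript on the x axis (points shifted slightly by family) and its counts summed over the 6 libraries plus 1 on a log y axis. Stars mark genes with a polyadenylation signal within 30 bases behind the stem-loop; H4C3 stands alone at 18 adenines and 6386 counts, and 3 of the 4 stars are among the genes with the most counts. Whether these features set the counts was not tested.

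Most replication-dependent histone genes were close to absent from the libraries. Of the 65 genes, 19 had no read in any library, 31 had 1 to 29 counts over all 6 libraries and 15 had 30 or more. In 42 genes no library held more than 3 counts. A floor of 3 counts corresponded to 0.680 to 0.992 CPM (counts scaled to the size of each library with TMM factors), and expression below it was not detectable at this depth. The 65 genes together received 10817 counts, between 0.0372% and 0.0750% of a library. H4C3 alone held 6386 of these counts, H1-2 held 1926, H2BC12 1212 and H2AC19 320. By family, H4 received 6466 counts, H1 2140, H2B 1646, H2A 469 and H3 only 96.

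Only 8 genes had enough counts to be tested: H4C3, H1-2, H1-3, H1-4, H2AC19, H2BC5, H2BC12 and H2BC18. The test was edgeR's quasi-likelihood test over all 12510 genes that passed the filter on low counts, with Benjamini-Hochberg adjustment and a threshold of 0.05. Of the 8 genes, 2 rose after YAP/TAZ depletion, against 0.743% of all tested genes, and 0 fell, against 1.22%. In DESeq2, the other tool run, 2 rose, against 1.88% of the genes it tested, and 1 fell, against 2.47%. At an unadjusted p under 0.05, 4 of the 8 were lower and 3 higher, where 9.27% and 8.40% of all tested genes were. The siCtrl and siYAP/TAZ libraries did not overlap in 4 genes, 2 lower and 2 higher, compared with 11.1% and 11.0% of all tested genes. The median log2 fold change of the 8 genes was 0.02, beside 0.00 for all tested genes, because 4 were lower and 4 higher. All 8 are genes with comparatively many oligo-dT reads, and they are not a sample of the 65.

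**Figure D2:**
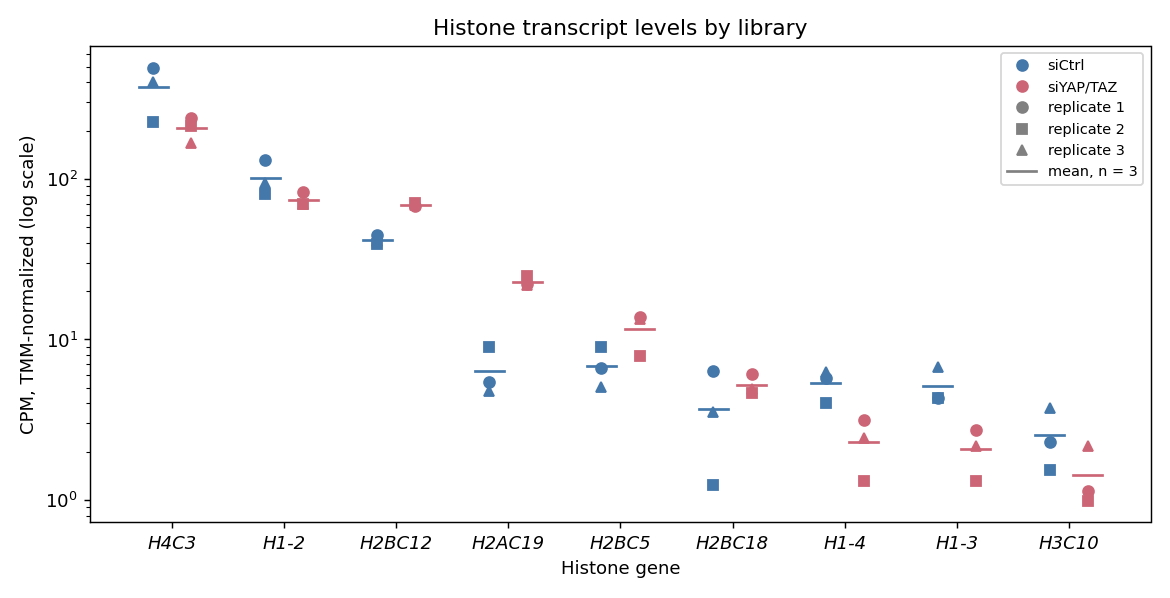
CPM on a log axis for the 9 named histone genes in each library, with siCtrl in blue, siYAP/TAZ in red, 1 symbol shape per replicate number and a bar at the mean of 3 libraries. H2AC19 and H2BC12 are higher in all 3 siYAP/TAZ libraries, whereas the siCtrl replicate 2 square of H4C3 lies among the siYAP/TAZ points.

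H2AC19, a gene for canonical H2A in the cluster on chromosome 1 (hg19 chr1:149822628-149823161, plus strand, single exon), showed the largest fold change of the 8 tested genes, in either direction. It was at 5.46, 8.95 and 4.77 CPM in siCtrl replicates 1, 2 and 3 and at 22.2, 24.8 and 21.8 CPM in siYAP/TAZ replicates 1, 2 and 3. All siYAP/TAZ values lay far above all siCtrl values. The mean changed from 6.39 ± 2.24 to 22.9 ± 1.64 CPM (SD, n = 3 each), or by 1.85 ± 0.27 on the log2 scale (SE; adjusted p = 0.0138, edgeR's quasi-likelihood test). Within same-numbered libraries, the siYAP/TAZ value was 407%, 277% and 456% of the siCtrl value. The call was lost when siCtrl replicate 3 (adjusted p = 0.0894), siYAP/TAZ replicate 2 (0.0505) or siYAP/TAZ replicate 3 (0.0836) was left out of the edgeR fit, with log2 fold changes of 1.67 to 1.89. The sequence of H2AC19 is not unique: all 269 windows of 32 bases in the last 300 bases of its transcript also occur in its neighboring twin on chromosome 1, HIST2H2AA3, which RefSeq lists under H2AC18 and which has no row in the table. Reads from the pair cannot be told apart.

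H2BC12, an H2B gene on chromosome 6 (chr6:27114140-27114634, minus strand, single exon), was the other gene that rose. Its levels were 45.1, 39.2 and 41.0 CPM in siCtrl, compared with 68.0, 70.4 and 68.5 CPM in siYAP/TAZ. The replicates of either group lay close together and the groups were well separated. The mean went from 41.7 ± 3.03 to 69.0 ± 1.27 CPM (SD, n = 3 each), or by 0.72 ± 0.13 on the log2 scale (SE; adjusted p = 0.0311, edgeR's quasi-likelihood test). The call was lost without siCtrl replicate 1 (edgeR adjusted p = 0.0687), siCtrl replicate 3 (0.159) and each of siYAP/TAZ replicates 1 (0.0750), 2 (0.105) and 3 (0.158), while the log2 fold change stayed between 0.71 and 0.78. A share of 63.2% of the 32-base windows at its 3′ end is also found in H2BC12L, a copy on chromosome 21, so that reads from the copy may be included.

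2 further H2B genes were tested and did not pass the threshold. H2BC5 (chr6:26158350-26158835 for the transcript with the stem-loop, plus strand) was at 6.61, 8.95 and 5.03 CPM in siCtrl and at 13.8, 7.93 and 13.3 CPM in siYAP/TAZ, where replicate 2 lay inside the siCtrl range (log2 fold change 0.79, SE 0.32, edgeR adjusted p = 0.245). H2BC18, on chromosome 1, was at 6.32, 1.23 and 3.52 CPM in siCtrl and at 6.12, 4.63 and 4.90 CPM in siYAP/TAZ (log2 fold change 0.50, SE 0.48, edgeR adjusted p = 0.639), and all of its 3′ windows are repeated elsewhere in the genome. H2BC21, named here after its values were seen, had 3, 7 and 0 counts in siCtrl, compared with 23, 12 and 10 counts in siYAP/TAZ. It did not pass the filter on low counts. In a fit of all genes with 30 or more counts its log2 fold change was 2.03 and did not pass (edgeR adjusted p = 0.194). Without siCtrl replicate 2 it passed the filter and was called higher (3.21, edgeR adjusted p = 0.0275). In the other fits with a single library left out that it entered, it was not called (edgeR adjusted p = 0.331 to 0.420). Its annotated transcript runs 1801 bases past the stop codon, and the 3′ windows, taken from that far end, are unique. Of the end windows of H2BC18, 61.7% also occur in H2BC21, so reads near the stem-loop may be shared by both genes.

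For orientation, 150 bases upstream of the start sites of the 2 genes that rose are printed from RefSeq promoters (GRCh38.p14), with CCAAT boxes, the octamer ATTTGCAT and TATAAA in capitals on either strand. H2BC12 is at chr6:27146859-27147008 (minus strand) and H2AC19 at chr1:149850911-149851060 (plus strand).

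H2BC12: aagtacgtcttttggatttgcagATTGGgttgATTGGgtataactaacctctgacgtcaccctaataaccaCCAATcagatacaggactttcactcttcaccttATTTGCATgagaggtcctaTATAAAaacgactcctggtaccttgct
H2AC19: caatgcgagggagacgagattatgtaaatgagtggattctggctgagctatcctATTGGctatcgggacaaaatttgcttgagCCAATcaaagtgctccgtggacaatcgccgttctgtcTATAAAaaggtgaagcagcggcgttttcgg

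Promoters of 60 histone genes were matched, each covering 250 bases before to 50 bases after the start. H4C3 was not among them. A start listed under several genes was used only where a gene had no other. CCAAT was present in 51 of 60, or 85.0%, compared with 35.6% of 27245 other promoters, and TATAAA in 40 of 60 (66.7%, compared with 11.8%). The octamer, a binding site of POU-domain factors, occurred in 14 of 18 H2B and 11 of 14 H2A promoters and in 0 of the 6 H1, 10 H3 and 12 H4 promoters, compared with 1.71% of other promoters. In H4 promoters CCAAT was found in 3 of 12, whereas all 48 promoters of the other families contained it. Several H2A and H2B genes start close together on opposite strands, so their promoters as defined here overlap. A motif in the shared stretch was counted for both genes. The pairs H2AC11 and H2BC11, H2AC14 and H2BC14, H2AC8 and H2BC8, and H2AC20 and H2BC21 are examples for the octamer. The H2A and H2B counts are therefore not independent of each other. The motif matches describe the sequences only.

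H4C3, which encodes histone H4 (chr6:26104161-26104565, plus strand, single exon, within the span of an extended H2BC4 transcript on the opposite strand), was lower on average after YAP/TAZ depletion. Its levels were 494, 228 and 402 CPM in siCtrl, compared with 241, 214 and 168 CPM in siYAP/TAZ. siCtrl replicate 2 was far below the other control libraries and within the siYAP/TAZ range, so the groups overlapped. The mean of siYAP/TAZ was 208 ± 36.7 CPM beside 375 ± 135 CPM in siCtrl (SD, n = 3 each), a log2 fold change of -0.85 (SE 0.26) that did not pass the threshold (adjusted p = 0.134, edgeR's quasi-likelihood test). Same-numbered libraries had correlated deviations across genes, but only weakly for replicate 3 (r = 0.13, compared with 0.43 and 0.35). The replicate numbers are those of the column names, and the sample titles number several libraries differently, so this pairing is uncertain. With the replicate number as a block, the log2 fold change of H4C3 was -0.80 (SE 0.19) and passed (edgeR adjusted p = 0.0245). The block raised the calls over all genes to 5.44% lower and 4.66% higher, of which 1 lower and 2 higher were histone genes. H4C3 also passed without siCtrl replicate 2 (log2 fold change -1.11, edgeR adjusted p = 0.00291) and in DESeq2 (-0.86, adjusted p = 0.0262). Leaving out siCtrl replicate 2 raised the lower calls over all genes from 152 to 798. H4C3 did not pass without any other single library (log2 fold change -0.97 to -0.60, edgeR adjusted p = 0.166 to 0.448). Within the pairs, siYAP/TAZ was at 48.7%, 93.9% and 41.9% of siCtrl. None of the 3′ windows of H4C3 occurs elsewhere in the genome.

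The remaining H4 and H3 genes were near the detection limit. The 13 other H4 genes together had 23, 5 and 15 counts in siCtrl, compared with 11, 11 and 15 counts in siYAP/TAZ, so the groups overlapped. H3C10, which encodes H3 and was the H3 gene with the most counts, had 8, 5 and 15 counts in siCtrl, compared with 5, 3 and 8 counts in siYAP/TAZ. It did not pass the filter, and in the fit of genes with 30 or more counts its log2 fold change was -0.83 (edgeR adjusted p = 0.456).

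**Figure D3:**
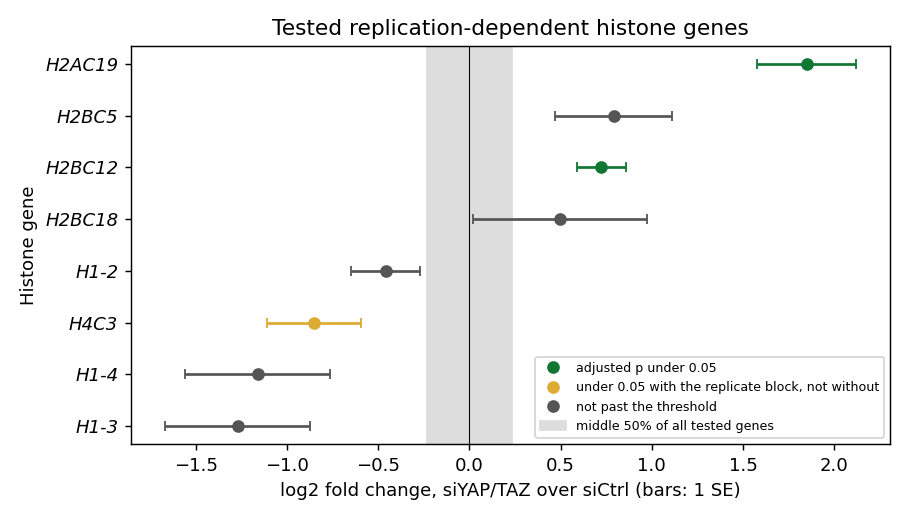
Log2 fold changes of siYAP/TAZ over siCtrl for the 8 tested histone genes, with bars of 1 SE; the grey band spans the middle 50% of all 12510 tested genes. H2AC19 and H2BC12 pass an adjusted p of 0.05, H4C3 does not pass in this fit but does with the replicate number as a block, and the 3 H1 genes lie below 0 without passing.

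The 3 tested linker histone genes, of 6, had lower means in siYAP/TAZ, and none passed the threshold. H1-2 (chr6:26055968-26056698, minus strand) was at 132, 80.2 and 93.7 CPM in siCtrl and at 82.7, 70.1 and 69.6 CPM in siYAP/TAZ. The highest siYAP/TAZ library lay just above the lowest siCtrl library. The mean was 102 ± 26.9 in siCtrl and 74.1 ± 7.44 CPM in siYAP/TAZ (SD, n = 3 each; log2 fold change -0.46, SE 0.19, edgeR adjusted p = 0.255). Without siCtrl replicate 2 the edgeR adjusted p of H1-2 was 0.0418, and without any other single library it was 0.268 to 0.599. H1-3 and H1-4 were at much lower levels, with no overlap between groups. H1-3 was at 4.31, 4.32 and 6.78 CPM in siCtrl and at 2.72, 1.32 and 2.18 CPM in siYAP/TAZ (log2 fold change -1.27, SE 0.40, edgeR adjusted p = 0.141). H1-4 was at 5.74, 4.01 and 6.28 CPM in siCtrl and at 3.17, 1.32 and 2.45 CPM in siYAP/TAZ (log2 fold change -1.16, SE 0.40, edgeR adjusted p = 0.173). The 3′ windows of these 3 H1 genes are unique in the genome.

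Summed by family, the opposite signs became visible as a change in composition. H2A sums were 14.1, 13.6 and 13.3 CPM in siCtrl, compared with 27.4, 29.7 and 30.5 CPM in siYAP/TAZ, and H2B sums 64.6, 53.4 and 54.8 CPM in siCtrl, compared with 95.0, 89.2 and 92.7 CPM in siYAP/TAZ. Neither family sum overlapped between groups. Over all 6 libraries, H2AC19 held 320 of the 469 H2A counts and H2BC12 held 1212 of the 1646 H2B counts. The other H2A genes with 30 or more counts, H2AC20 and H2AC14, overlapped between groups. Their log2 fold changes were -0.10 and -0.23 in the fit of genes with 30 or more counts. Among the other H2B genes with 30 or more counts, H2BC5 and H2BC18 overlapped and H2BC21 did not. A rise of either family as a whole is therefore not shown by these sums. H1 sums were 146, 88.9 and 110 CPM in siCtrl, compared with 91.3, 74.7 and 75.6 CPM in siYAP/TAZ. The sum of all 65 genes was 570 ± 172 CPM in siCtrl, compared with 417 ± 41.4 CPM in siYAP/TAZ (SD, n = 3 each). Without H4C3 it was 195 ± 38.7 and 209 ± 9.76 CPM. H4C3 held 67.6%, 58.7% and 68.1% of the histone counts in siCtrl, compared with 52.3%, 51.8% and 44.6% in siYAP/TAZ.

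**Figure D4:**
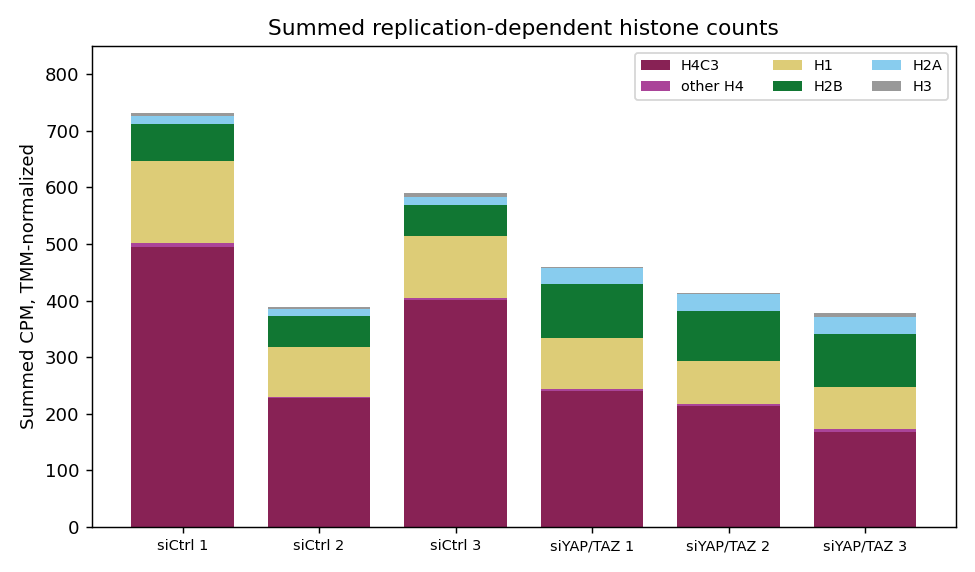
Summed CPM of the 65 replication-dependent histone genes in each library, stacked by family with H4C3 shown separately. The total ranges from 377 to 731 CPM and follows H4C3, while the H2A and H2B segments are larger in all 3 siYAP/TAZ libraries. Over all libraries, most counts of these segments came from H2AC19 and H2BC12.

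S phase genes were at low levels in both replicate 2 libraries. Of a list of 19 G1/S and S phase genes, 12 had their lowest level in siCtrl replicate 2 and the other 7 in siYAP/TAZ replicate 2. The list summed to 1650, 660 and 1409 CPM in siCtrl and to 990, 571 and 747 CPM in siYAP/TAZ. In the sum, of which RRM1 was the largest part, siCtrl replicate 2 was below siYAP/TAZ replicates 1 and 3, as it was below siYAP/TAZ replicate 1 for H4C3. PCNA, the sliding clamp of DNA polymerases, was at 63.3 CPM in siCtrl replicate 2 and at 252 and 189 CPM in the other siCtrl libraries. For H2BC12 and H2AC19, every siCtrl library lay below every siYAP/TAZ library. In these genes siCtrl replicate 2, at 39.2 and 8.95 CPM, was the lowest control for H2BC12 and the highest for H2AC19. The part of S phase genes in the differences of H4C3, H2BC12 and H2AC19 was not tested. In bulk RNA, fewer cells in S phase and less RNA per cell cannot be told apart.

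**Figure D5:**
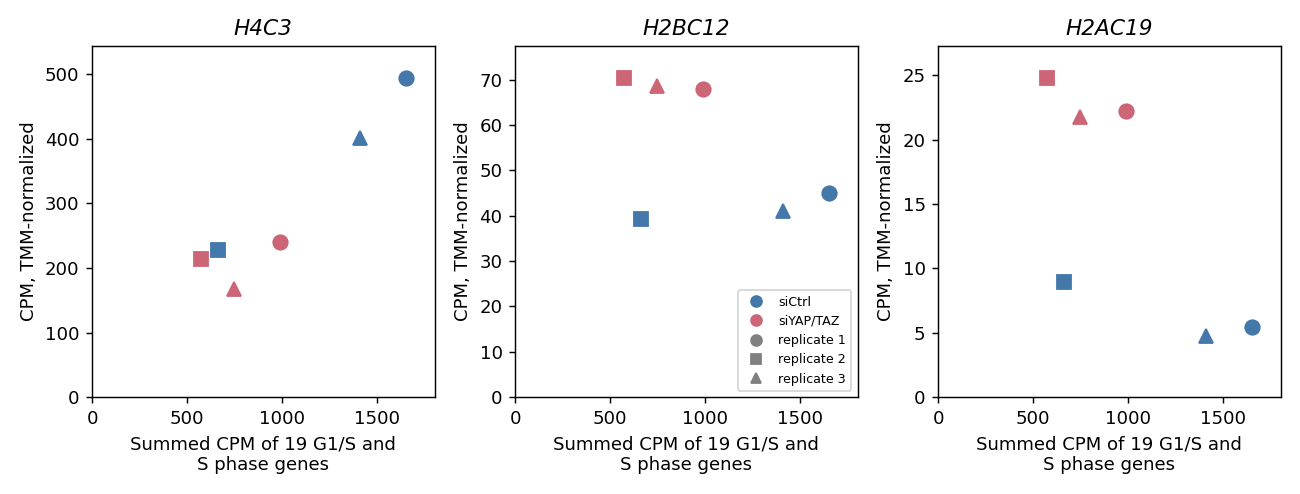
CPM of H4C3, H2BC12 and H2AC19 in each library (y axes) against the summed CPM of 19 G1/S and S phase genes (x axes), with siCtrl in blue, siYAP/TAZ in red and 1 symbol shape per replicate number. siCtrl replicate 2, at 660 on the x axis, lies beside the siYAP/TAZ libraries for H4C3 and below all of them for H2BC12 and H2AC19.

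Of the G1/S and S phase list, 18 genes were tested, with 17 lower and 1 higher value in siYAP/TAZ and a median log2 fold change of -0.72. In edgeR's test 0 of them passed the threshold. At an unadjusted p under 0.05, 4 were lower and 0 higher, where 9.27% and 8.40% of all tested genes were. DESeq2 called 2 lower, where it called 2.47% of all genes lower. With the replicate block 6 were lower, where 5.44% of all genes were, among them RRM1 and RRM2, subunits of ribonucleotide reductase, TYMS, which makes thymidylate, and the replication factors MCM7, CDC45 and GINS2. RRM1 had a mean of 351 ± 67.6 CPM in siCtrl, compared with 204 ± 34.8 CPM in siYAP/TAZ (SD, n = 3 each; log2 fold change -0.78, edgeR adjusted p = 0.0681, and 0.00205 with the block).

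Replication-independent histones, whose mRNAs are mostly polyadenylated, provided a comparison read by the usual tail. Of 12 variant and replacement histone genes, 11 were tested, and 9 were lower and 2 higher, with a median log2 fold change of -0.34. In edgeR's test 0 passed the threshold, and 3 were lower at an unadjusted p under 0.05, where 9.27% of all tested genes were. DESeq2 called 0 as well. H2AZ1, a variant placed at promoters, was at 1204, 614 and 1094 CPM in siCtrl and at 706, 517 and 578 CPM in siYAP/TAZ (log2 fold change -0.69, edgeR adjusted p = 0.188, and 0.0143 with the block). Its siCtrl replicate 2 was again the low control. H2AZ2 and the centromeric H3 variant CENPA also passed with the block, which called 5.44% of all tested genes lower. H3-3B and H3-3A, which encode H3.3, were at 808 and 501 CPM in siCtrl and at 636 and 557 CPM in siYAP/TAZ on average, with edgeR adjusted p-values of 0.407 and 0.600.

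The machinery that makes and escorts histones was examined by further lists. All 15 genes of histone pre-mRNA processing and histone gene transcription were tested, with a median log2 fold change of -0.18 and 0 calls in edgeR. At an unadjusted p under 0.05, 0 were lower and 1 higher, where 9.27% and 8.40% of all tested genes were. DESeq2 called 1 higher, where it called 1.88% of all genes higher. SLBP was at 64.3, 26.8 and 47.2 CPM in siCtrl and at 40.6, 28.8 and 41.3 CPM in siYAP/TAZ (edgeR adjusted p = 0.611). NPAT, the coactivator of histone gene clusters, had a log2 fold change of -0.01. TUT7, a terminal uridylyltransferase, was at 68.4, 131 and 78.4 CPM in siCtrl and at 157, 149 and 213 CPM in siYAP/TAZ (log2 fold change 0.91, edgeR adjusted p = 0.0950, and 0.0156 with the block). Of 20 genes of histone chaperones and histone acetylation 15 were lower and 5 higher, with a median of -0.30 and 0 calls in edgeR. At an unadjusted p under 0.05, 3 were lower, where 9.27% of all tested genes were. DESeq2 called 1 lower, where it called 2.47% of all genes lower. HJURP, the chaperone of CENPA, had a log2 fold change of -1.23 (edgeR adjusted p = 0.0774, and 0.00597 with the block).

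The depletion was visible in the RNA: YAP1 was at 201 ± 11.1 CPM in siCtrl, compared with 115 ± 3.25 CPM in siYAP/TAZ (edgeR adjusted p = 0.0138), and WWTR1 at 106 ± 4.02 and 65.8 ± 5.44 CPM (SD, n = 3 each; edgeR adjusted p = 0.0311). The libraries held 3175149 to 4317286 counts. Groups and replicate numbers were taken from the names of the count columns. The sample titles number several libraries differently. For 2 libraries, siCtrl replicate 2 and siYAP/TAZ replicate 2, the sample title and the genotype label name the other group. Their YAP1 levels of 204 and 118 CPM, however, lay with the group of the column name. When the groups were set by title, 0 genes of the table passed in edgeR (242 lower and 222 higher at an unadjusted p under 0.05), and the log2 fold changes of H2AC19 and H2BC12 were 0.63 and 0.17. When both libraries were left out, H4C3 was lower (log2 fold change -1.13, edgeR adjusted p = 0.00606), and 4 histone genes were higher (H2AC19, H2BC12, H2BC5 and H2BC21). Calls rose over the whole table as well, to 591 genes lower and 592 higher, from 152 and 93 in the fit reported. Mammary epithelial markers were present in all libraries, with 8 of 8 tested and 6 lower and 2 higher values. In edgeR's test 0 of them passed the threshold. DESeq2 called 2 lower, where it called 2.47% of all genes lower. With the replicate block 3 were called lower and 1 higher, where 5.44% and 4.66% of all genes were. KRT5 was at 912 CPM in siCtrl, compared with 661 CPM in siYAP/TAZ on average. Of 9 markers of other cell types, 8 had too few counts to be tested and 0 were without any read, and the list summed to 5.17 to 8.95 CPM in siCtrl, compared with 7.93 to 14.5 CPM in siYAP/TAZ. Its tested gene, PECAM1, was at 1.32 and 5.88 CPM on average (edgeR adjusted p = 0.0785). PECAM1 was called higher with the replicate block, where 4.66% of all genes were. DESeq2 called 1 gene of this list higher, where it called 1.88% of all genes higher. The part of PECAM1 in the histone results was not tested.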

How the data were processed

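RNA from 6 MCF10A libraries had been prepared with a 3′ mRNA kit that primes from oligo-dT. The deposited values are raw counts per gene. Per the labels, the authors trimmed reads with cutadapt 4.2 and aligned them to hg19 with Bowtie2 2.3.5.1. Gene annotation, strand setting and the handling of reads with several equally good positions are not given in the sources used here. That choice could move counts between near-identical histone genes. Genes were filtered with filterByExpr (minimum count 10), scaled by TMM and tested with edgeR 4.0.16 in R 4.3.3 (quasi-likelihood, Benjamini-Hochberg over 12510 genes). DESeq2 1.42.0 and the other alternatives are given in the closing section, and the scripts were tested on simulated data. Same-numbered libraries, by column name, had correlated deviations from their group means (r = 0.43, 0.35 and 0.13). Differently numbered libraries had r of -0.37 to 0.05. The replicate number was therefore used for the pair percentages and as a block in an alternative fit. The fit reported has no block. Symbols were found for 23308 of 23459 rows. Libraries with identical values were not found. Members and gene lists were chosen with earlier results of these data known. Named histone genes were those past the threshold, the 8 with the highest mean CPM and the highest of each family; in other lists, genes past the threshold, the 3 with the highest CPM and the exceptions PCNA, SLBP, NPAT, HJURP, CENPA, H2AZ2 and the genes called with the block, which were chosen after their values were seen. A listed gene is not reported here.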

Additional observations from a re-analysis of the deposited data

How the results depend on the processing

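The number of genes called over the whole table was 245 with edgeR as described, 578 with DESeq2, 556 with no filter on low counts, 1263 with the replicate block, 1183 with both libraries of conflicting title left out, 0 with groups set by title, and 16 to 1579 when 1 library was left out (of the siCtrl libraries, 92 with replicate 1 omitted, 1579 with replicate 2 and 16 with replicate 3; of the siYAP/TAZ libraries, 71 with replicate 2 omitted and 18 with replicate 3). Histone genes called lower numbered 0, but 1 (H4C3) with DESeq2, with no filter, with the replicate block and with both libraries of conflicting title left out, and 0 to 2 when 1 library was left out (H4C3 and H1-2 without siCtrl replicate 2). Histone genes called higher numbered 2, but 4 with both libraries of conflicting title left out, 0 with groups set by title, and 0 to 3 when 1 library was left out (of the siCtrl libraries, 1 with replicate 1 omitted, 3 with replicate 2 and 0 with replicate 3; of the siYAP/TAZ libraries, 1 with replicate 1 omitted and 0 with either of the others). The replicate block changed no other histone call than that of H4C3. H2BC18 had a log2 fold change of -0.20 with groups set by title, against 0.50 in the fit reported and 0.11 to 1.09 under the other alternatives, and the other 7 tested histone genes kept their sign under all 15 alternatives. The cause was not tested. The low-count filter kept 57 of the 65 genes out of the fit reported, the whole H3 family among them; with no filter, 46 entered the test and 3 were called.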
